A study of Mus musculus with 6 samples.

Results

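The adrenomedullin and calcitonin gene-related peptide (CGRP) system is described here through 6 genes: Adm and Calca, which encode the peptides, Calcrl, which encodes their shared receptor, and Ramp1, Ramp2 and Ramp3, which encode the receptor's accessory subunits. They were chosen by symbol, and Calca was put forward because it was among the strongest differences between the groups. Of the 6 genes, 5 had a row among the 12911 genes listed, and all 5 passed the filter on low counts that left 12786 genes to test. Ramp1 is not analysed here.

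The RNA came from glomerular endothelial cells, which line the porous capillaries where the kidney filters blood, of mice without endothelial nitric oxide synthase (eNOS-null). There were 3 libraries from mice given streptozotocin (STZ), which kills the insulin-producing beta cells and is used to make rodents diabetic, and 3 control libraries from eNOS-null mice with no treatment. Both groups therefore carry the eNOS deletion, and mice with intact eNOS are no part of the comparison. Each library pooled the RNA of 4 mice, so its value is an average over animals, and the spread between libraries is a spread between pools. Cells positive for the yellow fluorescent protein EYFP were separated by sorting after the glomeruli had been caught with magnetic beads. The driver of EYFP, the age and the sex of the mice and the time after STZ are not given in the labels.

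Adrenomedullin is a vasodilator peptide that endothelial cells release and that acts back on endothelium, where it raises cyclic AMP (cAMP) and tightens the barrier. Calca yields calcitonin or CGRP by alternative splicing, and CGRP is best known as a vasodilator of sensory nerves. The receptor protein CALCRL cannot signal alone: with RAMP1 it binds CGRP, and with RAMP2 or RAMP3 it binds adrenomedullin. All these receptors couple mainly to the stimulatory G protein Gs and adenylyl cyclase.

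The libraries differed between the groups in more than treatment. Total counts were 10734376, 12069443 and 12662371.5 in STZ libraries 1 to 3, against 8751732.5, 6020083 and 4387339 in control libraries 1 to 3, so every STZ library was deeper. Xist, the RNA of the inactive X chromosome, stood at 0.748 ± 0.240 CPM (counts scaled to library size, as the term is used throughout) in STZ libraries and 708.7 ± 32.3 CPM in control libraries, and the Y-linked Ddx3y at 135.0 ± 4.09 CPM in STZ against 3.07 ± 0.375 CPM in control libraries (SD, n = 3 each). Treatment and the sex of the mice therefore cannot be told apart, and the part of either in the values below was not tested. Nos3, the gene of the deleted enzyme, was still counted, at 676.2 ± 68.4 CPM in STZ and 840.3 ± 80.4 CPM in control libraries (SD, n = 3 each; edgeR quasi-likelihood test with Benjamini-Hochberg adjustment, adjusted p = 0.0911), and a count over a whole gene does not show which allele it comes from.

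Calca is shown first by the 2 exons between which its transcripts choose, because 1 count per gene cannot tell the hormones apart. On mm10 the gene lies on the minus strand of chromosome 7, and the listed transcript, 877 bases long, spans chr7:114633291-114636357 and ends with the calcitonin exon. The CGRP exon lies outside that span, downstream of it in the annotation. The sequences below are from the GENCODE M21 transcripts. They are written 5′ to 3′ on the gene's strand, with the last 30 shared bases in lower case and the exon-specific coding bases in capitals. The calcitonin stretch covers chr7:114633605-114633785 and the CGRP stretch chr7:114632443-114632599.
Calca calcitonin exon: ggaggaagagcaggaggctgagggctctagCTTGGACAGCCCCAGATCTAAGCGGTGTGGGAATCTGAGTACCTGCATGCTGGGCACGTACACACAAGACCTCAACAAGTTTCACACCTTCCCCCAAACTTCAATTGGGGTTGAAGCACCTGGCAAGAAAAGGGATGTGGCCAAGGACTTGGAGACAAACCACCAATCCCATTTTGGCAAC
Calca CGRP exon: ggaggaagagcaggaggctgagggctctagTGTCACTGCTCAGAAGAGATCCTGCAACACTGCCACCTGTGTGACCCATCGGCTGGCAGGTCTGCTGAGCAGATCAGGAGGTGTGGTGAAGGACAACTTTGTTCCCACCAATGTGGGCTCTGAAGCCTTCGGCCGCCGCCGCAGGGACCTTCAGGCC
The 30 shared bases read the same in both transcripts and the bases after them differ. The listed coordinates are those of the calcitonin transcript, and 3 transcripts are listed for the gene. Which of them the count stands for is not given in the sources used here, so every Calca value below is a value for the gene and not for calcitonin or CGRP.

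The promoters of the 2 peptide genes are shown because these genes differed in opposite directions. The 250 bases before the start are from the RefSeq table of build GRCm38.p6, with capitals on the letters TGACG (the core bound by the cAMP-responsive factor CREB) or GCGTG (a core bound by hypoxia-inducible factor), on either strand.
Adm, chr7:110627407-110627656, plus strand: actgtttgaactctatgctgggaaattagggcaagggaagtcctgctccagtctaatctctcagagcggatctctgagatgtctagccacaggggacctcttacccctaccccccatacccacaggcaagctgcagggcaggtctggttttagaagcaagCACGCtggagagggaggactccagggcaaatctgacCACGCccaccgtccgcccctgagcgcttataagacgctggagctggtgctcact
Calca, chr7:114636358-114636607, minus strand: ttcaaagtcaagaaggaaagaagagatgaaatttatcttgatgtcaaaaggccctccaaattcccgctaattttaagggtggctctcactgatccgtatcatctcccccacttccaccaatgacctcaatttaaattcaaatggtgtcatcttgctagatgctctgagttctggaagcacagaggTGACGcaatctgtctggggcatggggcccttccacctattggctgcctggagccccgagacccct
The Calca promoter held TGACG once, 65 bases before the start, and the Adm promoter did not hold it; 17.8% of the 32851 promoters in the table did. The Adm promoter held GCGTG, as its reverse complement CACGC, 90 and 54 bases before the start, and Calca's did not; 28.2% of promoters held it. The alternative core ACGTG, in 16.6% of promoters, was in neither. The 3 searched motifs do not overlap each other in these windows. Distances count back from the base that follows each window shown. For Adm the window ends at chr7:110627656, short of the listed gene start at chr7:110627669. The matches are a description of letters only.

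The 2 peptide genes differed in opposite directions between the groups. Adm had 750, 651 and 904 counts in STZ libraries 1 to 3, against 317, 216 and 138 counts in control libraries 1 to 3. Scaled to library size, Adm stood at 72.5, 56.3 and 73.2 CPM in STZ libraries, against 34.8, 34.7 and 30.5 CPM in control libraries. The groups did not overlap, and the lowest STZ library lay well above the highest control library. Adm averaged 67.3 ± 9.56 CPM in STZ and 33.3 ± 2.48 CPM in control libraries (SD, n = 3 each), a fitted log2 fold change of 1.01 ± 0.12 (SE), or 2.01-fold. Adm lies on the plus strand of chromosome 7, chr7:110627669-110629819, and has 1 listed transcript. An annotated antisense gene, Gm28863, spans all 2151 bases of it. Exons of the 2 were not compared and the strand setting of the counting is not given, so whether reads of Gm28863 entered the Adm count cannot be told.

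Calca ran the other way. It had 820, 669 and 831 counts in STZ libraries 1 to 3 and 1774, 1272 and 895 counts in control libraries 1 to 3, although the control libraries were shallower. On the CPM scale Calca stood at 79.3, 57.9 and 67.3 in STZ libraries, against 194.9, 204.3 and 197.7 in control libraries. The control libraries were within a narrow band, and every STZ library was far below it. Calca averaged 68.1 ± 10.7 CPM in STZ and 199.0 ± 4.81 CPM in control libraries (SD, n = 3 each), a log2 fold change of -1.55 ± 0.11 (SE), so the control level was 2.92-fold the STZ level. By the size of its p in the test across all genes, Calca ranked 13 of 12786, which is the difference it was chosen for. In bulk samples such as these, fewer cells of a type and less RNA per cell cannot be told apart.

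The receptor gene itself differed little, while both measured accessory subunits were higher in STZ libraries. Calcrl, the seven-helix receptor protein's gene on chromosome 2 (chr2:84330627-84425266, minus strand), stood at 870.1, 817.1 and 833.2 CPM in STZ libraries and 799.3, 928.4 and 948.8 CPM in control libraries. The groups overlapped, with control library 1 below every STZ library and the other control libraries above them all. Calcrl averaged 840.1 ± 27.2 CPM in STZ and 892.2 ± 81.1 CPM in control libraries (SD, n = 3 each), a log2 fold change of -0.09 ± 0.10 (SE). It was among the abundant genes, at percentile 99.3 of mean CPM over the tested genes.

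Ramp2, whose protein carries CALCRL to the surface as the adrenomedullin receptor of most endothelium, lies on chromosome 11 (chr11:101246334-101248250, plus strand). It stood at 669.0, 620.0 and 612.5 CPM in STZ libraries, against 437.2, 420.9 and 351.8 CPM in control libraries. All STZ libraries exceeded all control libraries. Ramp2 averaged 633.9 ± 30.7 CPM in STZ and 403.3 ± 45.4 CPM in control libraries (SD, n = 3 each), a log2 fold change of 0.65 ± 0.10 (SE), or 1.57-fold.

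Ramp3, the subunit of the other adrenomedullin receptor, lies on the same chromosome (chr11:6658533-6677475, plus strand). It stood at 280.4, 266.0 and 271.4 CPM in STZ libraries, against 195.9, 178.1 and 139.8 CPM in control libraries, again without overlap. Ramp3 averaged 272.6 ± 7.26 CPM in STZ and 171.3 ± 28.7 CPM in control libraries (SD, n = 3 each), a log2 fold change of 0.67 ± 0.11 (SE), or 1.59-fold. A pseudogene on the opposite strand, Gm11978, overlaps the first 1701 bases of the Ramp3 span. Exons of the 2 were not compared, so whether reads from that stretch entered the Ramp3 count cannot be told.

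**Figure D1:**
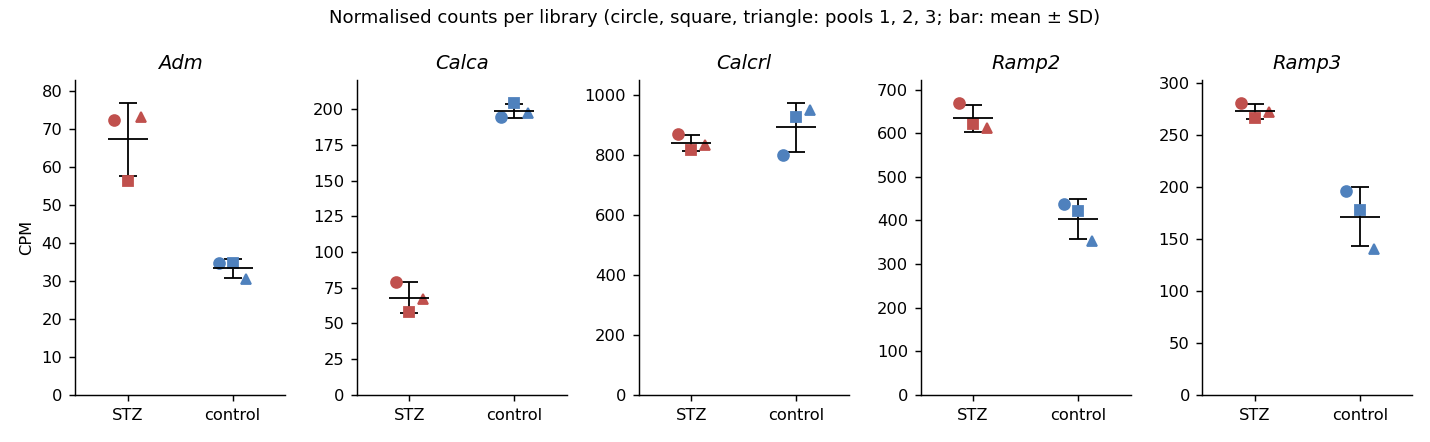
CPM of Adm, Calca, Calcrl, Ramp2 and Ramp3 in each STZ and control library, with points for libraries and bars for the mean ± SD of 3. Adm, Ramp2 and Ramp3 are higher in every STZ library than in any control library, Calca is lower in every STZ library, and Calcrl overlaps.

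Of the 5 genes, 3 were called higher and 1 lower in the edgeR quasi-likelihood test at an adjusted p under 0.05, beside 9.78% of all tested genes called, 5.46% higher and 4.32% lower. Libraries of the 2 groups did not overlap in 4 of the 5 genes, beside 29.1% of all tested genes. Because the genes were chosen with this contrast known, these counts are a description, and nothing is read from them. The median log2 fold change over all tested genes was -0.01 and the median absolute one 0.17. The values of Ramp2 and Ramp3 depend on what they are set against: relative to the summed CPM of 15 glomerular endothelial markers, a sum that was itself higher in every STZ library, their log2 differences were -0.06 for Ramp2 and -0.04 for Ramp3. On that scale the mean log2 difference was 0.29 for Adm, -2.28 for Calca and -0.80 for Calcrl. The groups overlapped there for Adm. STZ library 2 had 56.3 CPM of Adm beside a sum of 31050, a smaller part than in control library 2, with 34.7 beside 18660. The sum is weighted to its most abundant markers, and Plat stood at 8303 CPM in STZ and 2630 CPM in control libraries. Of the 15 markers, 8 were called higher and 7 were not called, with log2 fold changes from 1.66 for Plat to -0.31 for Nos3. Relative to the mean log2 CPM of the markers, which weights them alike, Ramp2 was at 0.0653 and Ramp3 at 0.0917.

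To compare levels between genes, CPM were divided by the listed transcript length in kilobases. Ramp2 was the most abundant of the 5 and Adm the least, in both groups. Ramp2 had 767.2, 711.1 and 702.4 CPM per kilobase in STZ libraries and 501.4, 482.7 and 403.5 in control libraries. At the other end, Adm had 52.5, 40.8 and 53.0 CPM per kilobase in STZ libraries and 25.2, 25.1 and 22.1 in control libraries. Both genes kept their place at the ends of the order in all 6 libraries.

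Calcrl, Ramp3 and Calca lay between them, and their order differed between the groups. In STZ libraries the means were 223.2 CPM per kilobase for Ramp3, 177.4 for Calcrl and 77.7 for Calca. In control libraries they were 226.9 for Calca, 188.4 for Calcrl and 140.3 for Ramp3. Calca was thus the second most abundant of the 5 genes in control libraries and the fourth in STZ libraries.

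Over all 6 libraries the order was Ramp2, Calcrl, Ramp3, Calca and Adm, and 4 neighbouring pairs were compared. Ramp2 exceeded Calcrl in 6 of 6 libraries, by 1.66 ± 0.44 on the log2 scale of CPM per kilobase (SD, n = 6; two-sided exact sign-flip permutation test, p = 0.03125, the smallest that 6 libraries allow; 0.0625 after Benjamini-Hochberg adjustment). Calca exceeded Adm in 6 of 6 libraries, by 1.95 ± 1.41 log2 units (exact permutation p = 0.03125, adjusted 0.0625). Neither pair passed 0.05 after adjustment over the 4 pairs. The size of both differences depended on the group. On average Calca was 1.60 times Adm in STZ and 9.43 times in control libraries, and Ramp2 was 4.10 and 2.48 times Calcrl. The means over all 6 libraries therefore describe neither group. Calcrl and Ramp3 differed by 0.05 ± 0.48 (Calcrl higher in 3 of 6 libraries, exact permutation p = 0.7812), and Ramp3 and Calca by 0.41 ± 1.24 (Ramp3 higher in 3 of 6, exact permutation p = 0.4375, adjusted 0.5833), and both of these pairs reversed between the groups. Ramp3 exceeded Calcrl and Calca in each of the 3 STZ libraries, and Calcrl and Calca exceeded Ramp3 in each of the 3 control libraries, so the difference over all 6 libraries describes neither group. Without control library 2, or without control library 3, Ramp3 stood above Calcrl. With the 994 bases of the CGRP transcript as the length of Calca, the order was the same.

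**Figure D2:**
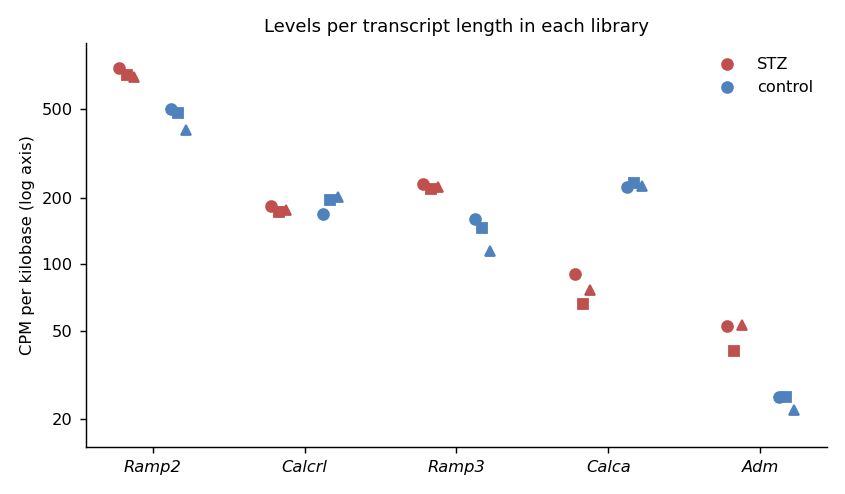
CPM per kilobase of transcript on a log axis for the 5 genes in each STZ and control library. Ramp2 is highest and Adm lowest in every library, and Calca is above Calcrl and Ramp3 in control libraries and below them in STZ libraries.

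Ratios within a library do not depend on the scaling between libraries. The ratio of Calca to Adm, per kilobase, was 1.72, 1.62 and 1.45 in STZ libraries and 8.81, 9.27 and 10.2 in control libraries. Adm made up 38.6% of the summed level of the 2 peptide genes in STZ libraries and 9.62% in control libraries, on average. Calca was the higher of the 2 in every library of both groups.

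The accessory subunits together, Ramp2 plus Ramp3, stood at 5.43, 5.38 and 5.26 times the level of Calcrl in STZ libraries and at 3.92, 3.21 and 2.59 times in control libraries. The STZ ratios lay close together, and the control ratios were spread and all lower. Within that sum, the share of Ramp2 was 77.0%, 76.6% and 76.0% in STZ libraries and 75.8%, 76.8% and 77.9% in control libraries. The shares of the groups overlapped, so the balance between the 2 subunits differed by less than the spread between libraries.

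**Figure D3:**
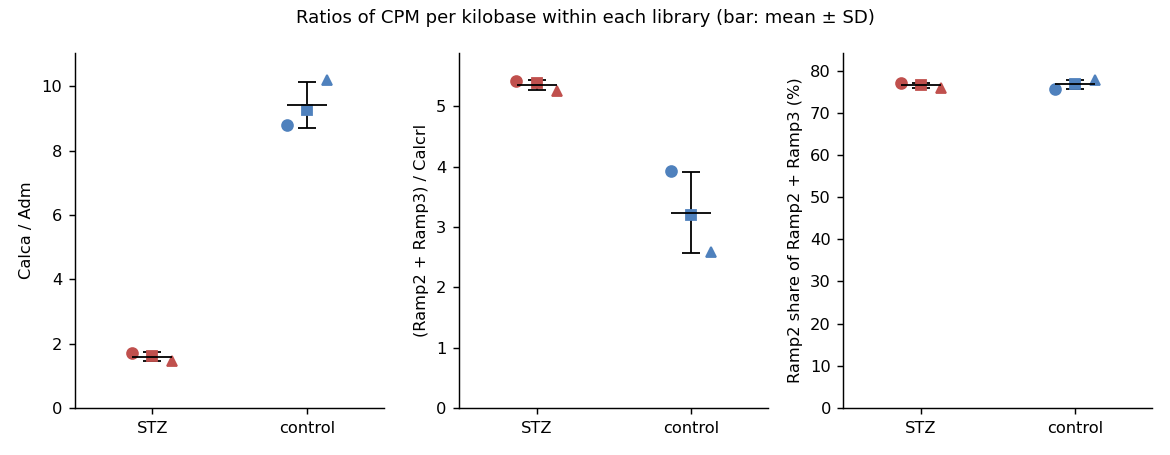
Ratios of CPM per kilobase within each STZ and control library, with bars for the mean ± SD of 3: Calca over Adm, Ramp2 plus Ramp3 over Calcrl, and the share of Ramp2 in Ramp2 plus Ramp3. The first is lower and the second higher in STZ libraries, and the third overlaps between the groups at 76.5% on average in STZ and 76.8% in control libraries.

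Across the 6 libraries, Pearson correlations of log2 CPM were 0.99 between Ramp2 and Ramp3, 0.96 between Adm and Ramp2 and 0.94 between Adm and Ramp3. Calca correlated at -0.92 with Adm, -0.92 with Ramp2 and -0.90 with Ramp3, and Calcrl at -0.66 to 0.51 with the other 4. These correlations mix the group difference with the spread inside the groups, share libraries, and are given as a description. Among tested genes with a mean log2 CPM of at least 3, the 3 most like Adm were Cnpy4, Hspa5 (the endoplasmic reticulum chaperone BiP) and Gapdh (a glycolytic enzyme), with r of 0.9979 to 0.9989 over the 6 libraries. The 3 most like Calca were Carns1 (carnosine synthase), Rasa3 (a Ras GTPase-activating protein) and Nadk2 (mitochondrial NAD kinase), with r of 0.9918 to 0.9968. Those most like Ramp2 were Cnp, Fbxw8 and Slco2a1 (the prostaglandin transporter), and those most like Ramp3 were Wee1 (a cell-cycle kinase), Pnp (purine nucleoside phosphorylase) and Psmd5, with r of 0.9955 to 0.9984. The 3 most like Calcrl, Pdzd11, Rtf1 and Hdgfrp3, reached r of 0.9704 to 0.9795.

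The nearest tested genes on the chromosome had smaller differences than Adm, Calca, Ramp2 and Ramp3. Those beside Calcrl, Itgav at -0.30 and Tfpi at 0.14, had larger ones than Calcrl. Beside Adm, Sbf2 (log2 fold change 0.48 ± 0.09, adjusted p = 0.00474) and Ampd3 (0.46 ± 0.10, adjusted p = 0.00953) were both higher in STZ libraries (edgeR quasi-likelihood test). Beside Calca, the phosphodiesterase gene Pde3b stood at -0.67 ± 0.17, with an edgeR adjusted p of 0.0261, and Insc at -0.20, adjusted p = 0.622. The call of Pde3b was lost without any 1 library except control library 1, with adjusted p of 0.0916 and 0.0717 without control libraries 2 and 3, and of 0.0504, 0.0698 and 0.0793 without STZ libraries 1, 2 and 3. That call was also lost by limma-voom (adjusted p = 0.0583) and when libraries were thinned to 1 depth (edgeR adjusted p = 0.155). Beside Calcrl, Ramp2 and Ramp3, Itgav, Tfpi, Ezh1, Vps25 and Adcy1 did not pass (adjusted p of 0.198 to 0.961), and Tbrg4 beside Ramp3 was lower (-0.43, edgeR adjusted p = 0.0281). The call of Tbrg4 was lost without any 1 library except control library 2, with adjusted p of 0.0636, 0.0889 and 0.0850 without STZ libraries 2, 1 and 3, and of 0.0819 and 0.0755 without control libraries 1 and 3. Itgav was called, lower in STZ libraries, without control library 3 (adjusted p = 0.0335).

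Of the calcitonin family outside these 5 genes, Adm2, Calcb, Iapp and Calcr are not analysed here. Ackr3, a scavenger receptor for adrenomedullin, stood at 7.88 ± 3.53 CPM in STZ and 11.7 ± 5.41 CPM in control libraries (SD, n = 3 each; edgeR adjusted p = 0.513). Crcp, the receptor component protein, stood at 27.8 CPM in STZ and 24.4 CPM in control libraries (edgeR adjusted p = 0.429). Neither gene passed the test.

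Among genes that mature or degrade peptides, 1 of 14 tested was higher and 1 lower, beside 5.46% and 4.32% of all tested genes, and their median log2 fold change was -0.17 beside -0.01 for all genes. Pcsk5, a proprotein convertase, fell to 105.6 ± 6.09 CPM in STZ libraries, against 170.3 ± 14.5 CPM in control libraries (SD, n = 3 each; edgeR adjusted p = 0.000428). Ece1, endothelin-converting enzyme, stood at 761.1 CPM in STZ and 571.2 CPM in control libraries (edgeR adjusted p = 0.0139, and 0.0862 without STZ library 1). Pam, the amidating enzyme that both peptides need, chosen after its values were seen, stood at 194.8 ± 13.8 CPM in STZ and 207.4 ± 19.8 CPM in control libraries (SD, n = 3 each; edgeR adjusted p = 0.632). The number of lower genes was 4 without control library 3, and 2 without STZ library 2 or without STZ library 3.

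Downstream of the receptor, most Gs and cAMP signalling genes, 19 of 24 tested, were not called. The others were 1 higher and 4 lower, beside 5.46% higher and 4.32% lower among all tested genes. The median log2 fold change of the list was 0.02, beside -0.01 for all genes. Rap1a, a small GTPase that acts below the cAMP sensor EPAC, stood at 189.5 CPM in STZ and 134.1 CPM in control libraries (log2 fold change 0.50 ± 0.09, edgeR adjusted p = 0.00222). Prkar2b, a regulatory subunit of protein kinase A, fell to 17.2 CPM in STZ libraries, against 31.7 CPM in control libraries (-0.87 ± 0.13, edgeR adjusted p = 0.000932). The CREB coactivator Crtc1 also fell (-0.61 ± 0.11, edgeR adjusted p = 0.00364). The number of lower genes was 2 without control library 2 or without STZ library 1.

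Phosphodiesterases that break down cAMP changed in both directions, 3 of 14 higher and 4 lower, beside 5.46% higher and 4.32% lower among all tested genes. Their median log2 fold change was -0.06, beside -0.01 for all genes. Pde4d stood at 74.1 CPM in STZ and 44.1 CPM in control libraries (0.74 ± 0.10, edgeR adjusted p = 0.000435), and Pde2a, which cGMP stimulates, at 1265 CPM in STZ and 794.3 CPM in control libraries (0.67 ± 0.10, edgeR adjusted p = 0.00123). Pde3a, which cGMP inhibits, fell to 11.1 CPM in STZ libraries, against 28.2 CPM in control libraries (-1.35 ± 0.20, edgeR adjusted p = 0.00092). Pde8b stood at 13.8 CPM in STZ and 26.0 CPM in control libraries (-0.90 ± 0.16, edgeR adjusted p = 0.00229). The number of lower phosphodiesterases was 2 without control library 2, STZ library 1 or STZ library 3, and 2 when libraries were thinned to 1 depth.

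Among 15 tested genes for receptor kinases, arrestins and trafficking partners, 2 were higher and 2 lower, beside 5.46% and 4.32% of all tested genes. Their median log2 fold change was -0.05, beside -0.01 for all genes. Slc9a3r2, a scaffold of the family that can hold RAMP3 receptors at the membrane, stood at 2681 CPM in STZ and 2038 CPM in control libraries (edgeR adjusted p = 0.0184), and the arrestin gene Arrb1 at 352.0 CPM in STZ and 274.8 CPM in control libraries (adjusted p = 0.0257). Both calls were lost without control library 1 (adjusted p = 0.0862 for Slc9a3r2 and 0.0825 for Arrb1), without STZ library 1 (0.0902 and 0.0858) or without STZ library 3 (0.0823 and 0.1324). Rgs5, a regulator of G protein signalling that pericytes also express, fell by 1.13 on the log2 scale (edgeR adjusted p = 9.99e-05), and Rgs4 by 1.10 (adjusted p = 0.0149, and 0.0652 and 0.0569 without control library 1 and control library 2, and 0.0888 when libraries were thinned to 1 depth).

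Immediate targets of cAMP and CREB were higher where they were called. Of 12 tested, 5 were higher and 0 lower by edgeR, beside 5.46% higher and 4.32% lower among all tested genes. DESeq2 called 6 higher and limma-voom 5, both with 0 lower, and the median log2 fold change was 0.39, beside -0.01 for all genes. The 7 that edgeR did not call, named after their values were seen, went both ways. Nr4a2 (-0.39, groups without overlap), Rgs2 (-0.30) and Nr4a3 (-0.20) were lower, and Crem, Ier2, Ppargc1a and Sik1 higher. The part of cAMP in these values was not tested. The clock gene Per1 stood at 432.9 ± 39.0 CPM in STZ and 241.2 ± 15.3 CPM in control libraries (SD, n = 3 each; 0.84 ± 0.10, edgeR adjusted p = 0.000146). Btg2, an antiproliferative gene, rose by 0.74 ± 0.09 (adjusted p = 0.000188), the phosphatase gene Dusp1 by 0.53 ± 0.10 (0.00365) and the nuclear receptor gene Nr4a1 by 0.56 ± 0.11 (0.00448), all by edgeR.

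Of 6 tested receptors with the same Gs coupling, 1 was called, beside 9.78% of all tested genes: Ptger4, a prostaglandin E receptor. It fell to 19.1 ± 4.60 CPM in STZ libraries, against 37.8 ± 3.05 CPM in control libraries (SD, n = 3 each; -0.98 ± 0.17, edgeR adjusted p = 0.00239), and without control library 3 a second receptor was called lower. Genes induced by hypoxia, among which Adm is usually counted, were 4 of 13 higher and 1 lower, beside 5.46% and 4.32% of all tested genes. Their median log2 fold change was 0.16, beside -0.01 for all genes. Ddit4, a brake on mTOR signalling, stood at 133.3 ± 6.51 CPM in STZ and 60.1 ± 0.637 CPM in control libraries (1.15 ± 0.09, edgeR adjusted p = 4.08e-06). Egln3, an oxygen sensor that hypoxia itself induces, went the other way, with 23.3 CPM in STZ and 42.5 CPM in control libraries (-0.86 ± 0.13, edgeR adjusted p = 0.00115). Vegfa did not pass, at 134.9 CPM in STZ and 152.5 CPM in control libraries (adjusted p = 0.615).

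**Figure D4:**
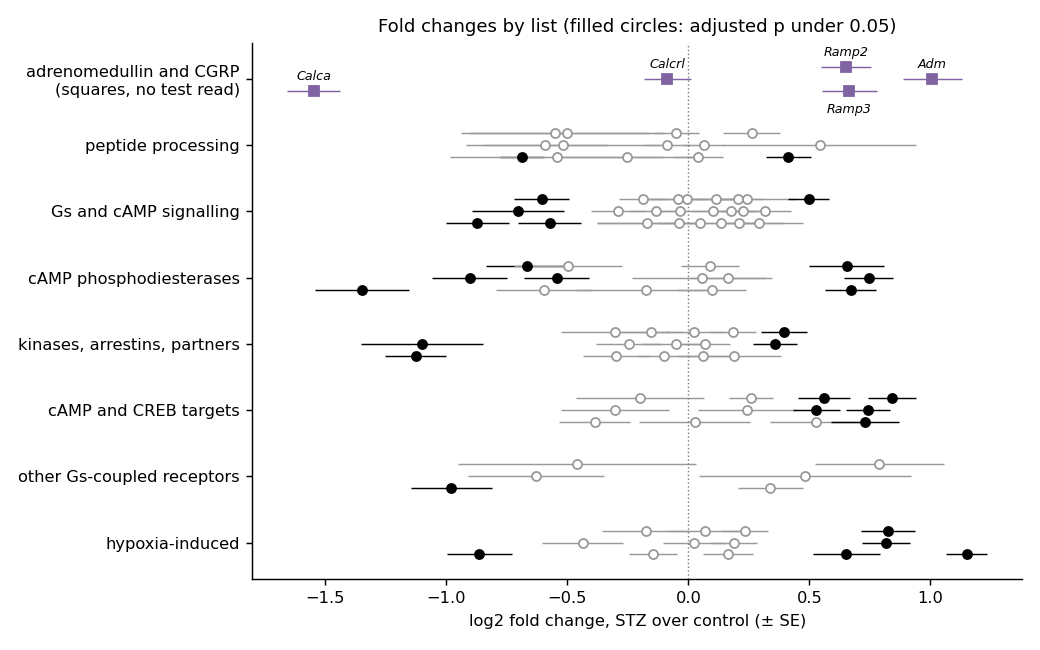
Log2 fold change (STZ over control, ± SE) of the 5 adrenomedullin and CGRP genes (squares) and of each tested gene of 7 pathway lists (circles, filled where the edgeR adjusted p is under 0.05). Calca is further left than any circle, and the called cAMP and CREB targets all lie to the right of 0.

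Markers of the cells that the sort could hold moved beside these genes. Of 15 glomerular endothelial markers, 8 were higher and 0 lower in STZ libraries by edgeR, beside 5.46% higher and 4.32% lower among all tested genes. DESeq2 and limma-voom also called 0 lower, and the median log2 fold change was 0.47, beside -0.01 for all genes. These markers summed to 28990 to 31190 CPM in STZ and 17300 to 19460 CPM in control libraries. Among them, Plat stood at 8303 CPM in STZ and 2630 CPM in control libraries, and Ehd3 at 5230.0 CPM in STZ and 3001 CPM in control libraries. The 7 other markers did not pass, Nos3 among them. The labelled cell type was present by its markers in every library, and the STZ libraries, in which the sum was higher, were also those with more Ramp2, Ramp3 and Adm and less Calca. Mesangial and mural markers summed to 606.2 to 1150 CPM in STZ and 1427 to 1545 CPM in control libraries, with a median log2 fold change of -0.82. By edgeR 4 of 12 were lower, beside 4.32% of all tested genes. The number was 7 by limma-voom, 7 without STZ library 2 and 8 with the replicate number in the model. Like Calca, that list was lower in every STZ library. Its part in the Calca values was not tested.

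Podocyte markers summed to 5037 to 6236 CPM in STZ and 4739 to 7503 CPM in control libraries, and tubule markers to 40.4 to 212.0 CPM in STZ and 135.2 to 442.8 CPM in control libraries. In both lists 0 markers were called by edgeR, and 2 in each had an unadjusted p under 0.05. Median log2 fold changes were -0.43 for podocyte and -0.63 for tubule markers. The podocyte sum was mostly Podxl, at 3708 CPM in STZ and 3581 CPM in control libraries (log2 fold change 0.05). Every other podocyte marker had a negative log2 fold change, so the overlap of the sums does not describe them singly. DESeq2 and limma-voom called 0 podocyte markers and 1 tubule marker, lower in STZ libraries, and without control library 3 edgeR called 7 podocyte markers lower. Among markers of arterial and arteriolar endothelium, 3 of 10 were higher and 3 lower, beside 5.46% and 4.32% of all tested genes. They summed to 2372 to 2947 CPM in STZ and 2375 to 2915 CPM in control libraries. Lymphatic markers, of which 2 of 3 tested were higher (5.46% among all tested genes), summed to 349.9 to 415.7 CPM in STZ and 249.3 to 294.5 CPM in control libraries. That sum was mostly Flt4, at 343.4 CPM in STZ and 232.0 CPM in control libraries. The third tested marker, Pdpn, was at -0.68 and not called (edgeR adjusted p = 0.179). It was called lower by DESeq2 and, by edgeR, without control library 3. Prox1, Lyve1 and Ccl21a are not analysed here. Leukocyte markers summed to 84.8 to 89.5 CPM in STZ and 85.5 to 110.2 CPM in control libraries. Of the 6 tested, 1 was called, beside 9.78% of all tested genes. It was Cd79a, a B cell gene, lower in STZ libraries, at 4.45 CPM, against 14.8 CPM in control libraries (log2 fold change -1.71, edgeR adjusted p = 0.00556), without overlap. Neuronal markers, listed because CGRP is a peptide of sensory nerves, summed to 277.5 to 347.7 CPM in STZ and 191.3 to 239.9 CPM in control libraries, opposite to Calca. That sum was mostly Uchl1, at 253.7 CPM in STZ and 169.3 CPM in control libraries (edgeR adjusted p = 0.02, and 0.0537 and 0.0572 without control library 1 and STZ library 1), and 10 of the 15 neuronal markers, Scn10a and Tac1 among them, are not analysed here.

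**Figure D5:**
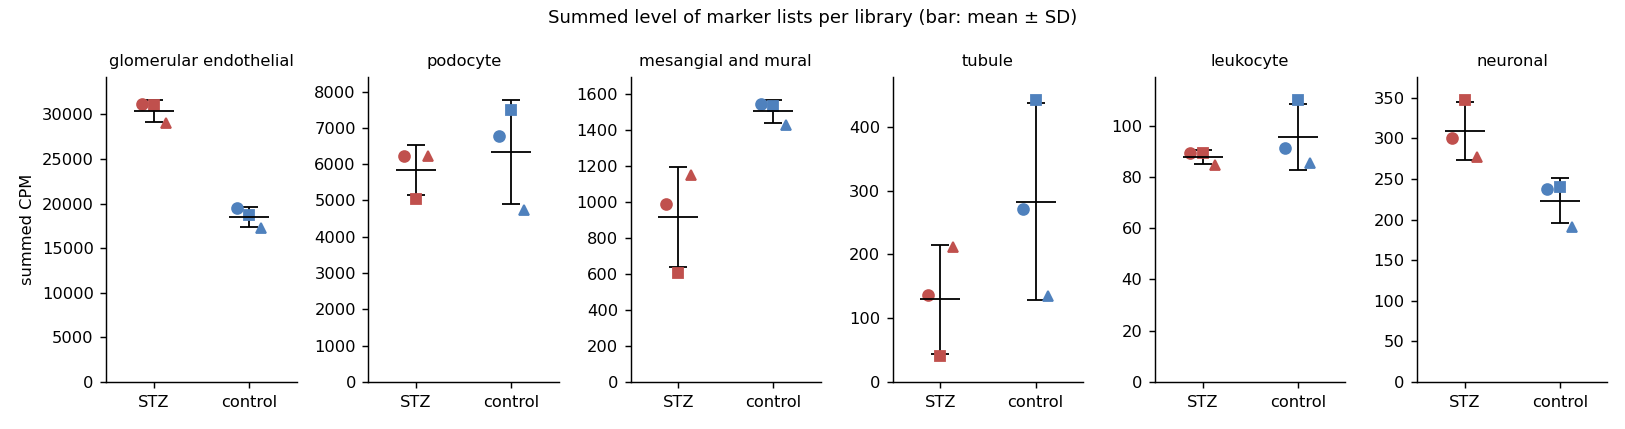
Summed CPM of marker lists in each STZ and control library, with bars for the mean ± SD of 3. Glomerular endothelial and neuronal markers are higher and mesangial and mural markers lower in every STZ library, and podocyte, tubule and leukocyte sums overlap between the groups.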

How the data were processed

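RNA sequencing libraries of sorted glomerular endothelial cells were analysed from 1 table per library. Per the file headers, each deposited table holds 1 count per RefSeq gene, treated as an expected count because values are multiples of 0.5 and 2251 genes had a fractional one; the authors made these expected counts on mm10, per the submitters' processing notes, which also name limma. What aligned and counted the reads, with which strand setting and gene filter, is not given in the sources used here. The 34 blank cells, 29 of them in control libraries, were read as 0, and 1 was added to the listed starts to give 1-based coordinates.

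Counts were rounded to the nearest whole number, fractions of 0.5 upwards. Genes were filtered with filterByExpr, scaled by TMM and tested with edgeR 4.0.16 in R 4.3.3 (robust quasi-likelihood F test, two-sided, Benjamini-Hochberg over 12786 genes, threshold 0.05). CPM, the cpm value of edgeR, are counts relative to the TMM-scaled library size. Errors are given as SD (3 libraries) or as the SE of a fold change. The p-values cover only how pools of 4 mice vary. Groups came from the labels. Totals of 4387339 to 12662371.5 counts per library set the precision. The procedure was tested on simulated data.

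The genes described and the lists were chosen with earlier results of these data known, and their counts carry no set test. Named genes are the 5 measured ones, Nos3 and sex-linked genes, up to 4 called genes with the smallest p in each list or, without calls, the 2 most abundant, the 2 most abundant of each marker list, the nearest tested genes, and the 3 most correlated genes with a mean log2 CPM of at least 3. Part of them is printed, and 1 gene that the rule took is not reported here. Alternatives were other normalizations and filters, DESeq2 1.42.0, voom of limma 3.58.1, a replicate block, thinning, each library left out, and levels not divided by length. Ratios to endothelial markers and the CGRP transcript length were added after seeing the data.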

Additional observations from a re-analysis of the deposited data

How the results depend on the processing

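Adm, Calca, Ramp2 and Ramp3 kept their direction and their side of the threshold under every normalization, filter, test, thinning and left-out library tried, with log2 fold changes of 0.94 to 1.12 for Adm, -1.67 to -1.44 for Calca, -0.16 to -0.04 for Calcrl, 0.57 to 0.71 for Ramp2 and 0.55 to 0.78 for Ramp3 when 1 library was left out. Relative to the summed endothelial markers, chosen after seeing the data, the values were 0.29 for Adm, -2.28 for Calca, -0.80 for Calcrl, -0.0626 for Ramp2 and -0.0358 for Ramp3, and relative to the mean log2 CPM of those markers 0.41, -2.15, -0.67, 0.0653 and 0.0917. Under each setting 2 neighbouring pairs in the order of levels were alike in every library. Without division by length they were other pairs: Calcrl came before Ramp2, Ramp2 before Ramp3, and Adm exceeded Calca in STZ library 3. Deviations of same-numbered libraries from their group mean correlated at 0.12, -0.13 and -0.16, and those of other-numbered libraries at -0.24 to 0.29. With 3 libraries per group, these values cannot show whether the replicate numbers pair the libraries. With the replicate block 994 genes were called, and Calca was at -1.56. There, 8 mesangial and mural markers were lower, against 4 without the block, and the calls of Slc9a3r2 (adjusted p = 0.0671) and Arrb1 (0.0701) were lost. Of all genes, 663 to 1290 were called with 1 library left out (721 without control library 1, 663 without STZ library 1 and 833 without STZ library 3, against 1250 with all), 426 to 694 higher and 237 to 596 lower, and 41 to 73 of the list genes, against 56. Over the 84 other named genes, 1118 of 1176 values under alternatives kept direction and call, 53 lost the call, 5 gained it and 0 reversed. The cause was not tested.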
